A study of Mus musculus with 24 samples.

Results

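A set of 10 lipid droplet genes was followed through the deposited liver data, namely Fitm1, Fitm2, Plin2, Plin4, Plin5, Cidea, Cideb, Cidec, Pnpla2 and G0s2. They were taken by symbol from a table of 37583 genes, all 10 were found, and all 10 passed the filter on low values, which asked for 10 or more in 3 or more libraries and kept 16471 genes for testing. RNA came from livers of C57BL6/CBA mice killed at 8.5 months of age, with 3 libraries, 1 mouse each as labelled, in each of 4 groups. WT mice were untreated wild type, KO mice were untreated Smyd3 knockouts, and DEN_WT and DEN_KO mice had the same genotypes and a single intraperitoneal dose of 25 mg/kg diethylnitrosamine (DEN), a carcinogen used to bring on hepatocellular carcinoma. The knockout was a gene trap in intron 5 of Smyd3, brought in through embryonic stem cells and so carried in every tissue, not in hepatocytes alone. Both treated and untreated animals ate a standard chow diet. Chromatin was precipitated from DEN-treated livers only, with an antiserum to Smyd3 (wild type) and an antibody to H3K4me3 (wild type and knockout), from 2 replicates each.

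Hepatocytes store surplus fatty acids as triglyceride in droplets that bud from the endoplasmic reticulum. FIT proteins (Fitm1, Fitm2) partition new triglyceride into droplets, perilipins (Plin2, Plin4, Plin5) coat the surface and govern the access of lipases, and CIDE proteins (Cidea, Cideb, Cidec) fuse droplets or load lipid onto lipoproteins. Pnpla2, also called ATGL, takes the first fatty acid off stored triglyceride, and G0s2 binds and inhibits it. Many of these genes are known targets of the fatty acid receptors PPARalpha and PPARgamma. Smyd3 is a methyltransferase of the SET and MYND domain family, and H3K4me3 marks active start sites.

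Values are normalized read counts of a gene in a library, as the authors deposited them, and are not scaled to gene length, so levels are not compared between genes. They summed to between 22320634 and 28973396 per library. Smyd3 itself read 59 to 89 in WT, 17 to 29 in KO, 57 to 74 in DEN_WT and 3 to 12 in DEN_KO. It was counted over the whole gene, exons before the trap included, and its values went with the labels. It was 3.26-fold lower in KO than in WT (limma adjusted p = 0.0651) and 8.75-fold lower in DEN_KO than in DEN_WT (limma adjusted p = 1.8e-04). DEN_KO was also 2.98-fold below KO (limma adjusted p = 0.022), so the remaining Smyd3 reads differed between the knockout groups. Hepatocyte markers were high in every library, with Alb between 904165 and 3386204, but they did not stay level. At a limma adjusted p under 0.05, 1 of 8 was higher (Apoa1) and 1 lower (Cps1) in DEN_WT than in WT. In DEN_KO against DEN_WT, 3 were higher (Ttr, Tat and Cps1) and 0 lower, beside 16.4% and 17.4% of all tested genes. DEN_KO replicate 2 held the highest of the 12 values for 4 of the 10 (Plin2, Plin5, Cidec and G0s2). DEN_KO replicate 1 held the highest for 3 (Fitm1, Plin4 and Pnpla2), and DEN_WT replicate 2 the lowest for 4. In bulk liver, fewer cells of a type and less RNA per cell cannot be told apart.

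The promoters of Fitm1, Plin4, Plin5 and G0s2 are shown because these were the 4 droplet genes with the largest differences between DEN_KO and DEN_WT, a choice made after their values were seen. Each line gives 250 bases before the RefSeq start (GRCm38.p6), written along the gene's own strand: chr14:55575424-55575673 on the plus strand for Fitm1, and on the minus strand chr17:56109783-56110032 for Plin4, chr17:56117549-56117798 for Plin5 and chr1:193273189-193273438 for G0s2. Plin5 has 2 RefSeq windows and the one farther upstream is shown. Capitals mark matches on either strand to CCCTCC (a hexamer reported to be bound by Smyd3), to AGGTCA (a single nuclear receptor site), to the CCAAT box, to the E-box CACGTG or to the TATA box written TATAAA.
Fitm1: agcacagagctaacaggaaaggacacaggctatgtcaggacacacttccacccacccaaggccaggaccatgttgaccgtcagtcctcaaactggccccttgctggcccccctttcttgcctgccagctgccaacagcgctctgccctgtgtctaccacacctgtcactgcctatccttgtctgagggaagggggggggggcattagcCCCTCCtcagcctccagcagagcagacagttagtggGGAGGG
Plin4: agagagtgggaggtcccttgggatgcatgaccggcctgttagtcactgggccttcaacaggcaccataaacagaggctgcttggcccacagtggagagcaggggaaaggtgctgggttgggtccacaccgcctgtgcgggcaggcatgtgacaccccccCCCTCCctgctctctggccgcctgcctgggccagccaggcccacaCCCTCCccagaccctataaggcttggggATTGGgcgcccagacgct
Plin5: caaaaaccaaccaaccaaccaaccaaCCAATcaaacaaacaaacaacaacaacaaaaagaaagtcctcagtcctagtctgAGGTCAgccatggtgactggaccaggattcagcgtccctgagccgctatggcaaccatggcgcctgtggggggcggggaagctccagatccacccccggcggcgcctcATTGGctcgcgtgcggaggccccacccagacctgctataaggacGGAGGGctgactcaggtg
G0s2: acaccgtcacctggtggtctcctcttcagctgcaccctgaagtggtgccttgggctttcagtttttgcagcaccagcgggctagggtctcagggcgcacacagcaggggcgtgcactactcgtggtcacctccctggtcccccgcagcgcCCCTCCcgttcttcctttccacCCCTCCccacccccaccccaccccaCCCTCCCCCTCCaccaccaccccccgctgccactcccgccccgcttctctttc
CCCTCC matched 4 times in G0s2 (100, 78, 53 and 47 bases before the start), 2 times in Plin4 (91 and 46 bases before) and 1 time in Plin5 (18 bases before). Fitm1 had 3 matches, at 42 and 6 bases before the start and another running across it. Over windows of 300 bases (250 before to 50 after the start), 5 of the 9 droplet genes with a RefSeq promoter held CCCTCC, the fifth being Cidec, while 39.2% of all 32851 promoters held it. AGGTCA matched in Plin2 and Plin5 (2 of 9, 16.3% of all promoters). A tandem pair of AGGNCA sites 1 base apart, the arrangement PPAR receptors prefer, matched in 0 of the 9 and in 0.381% of all promoters. CCAAT was found in Plin2, Plin4 and Plin5 (3 of 9, 37.4% of all promoters), TATAAA in Cideb (1 of 9, 13.6%) and CACGTG in Plin2 (1 of 9, 7.15%). Cidec and Plin5 have 2 windows each and counted once if either matched, while the shares over all promoters are of single windows. The 4 promoters shown were 60.3% to 66.7% G and C, against a median of 52.67% over all promoters. These are letter matches in a fixed window and carry no measurement of binding.

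Of the droplet genes 5 were lower and 2 were higher in DEN-treated than in untreated wild type liver, and 6 were higher in DEN-treated knockout than in DEN-treated wild type liver. Fitm1, Fitm2, Plin5 and G0s2 were both lower in DEN_WT than in WT and higher in DEN_KO than in DEN_WT, while Plin4 and Pnpla2 passed the threshold only in the second of these comparisons and Cideb only in the first. Cidea and Cidec moved up with DEN in both genotypes, though Cidea passed the filter on low values only through treated libraries. Plin2, the main perilipin of hepatocytes, was past the threshold in no comparison. All 10 were tested with limma on log2(value + 1), in a single fit of the 12 libraries with p-values adjusted over 16471 genes, and "past the threshold" means an adjusted p under 0.05. Among all tested genes, 29.6% were past it in DEN_WT against WT (16.1% higher, 13.5% lower) and 33.9% in DEN_KO against DEN_WT (16.4% higher, 17.4% lower). The same 3 DEN_WT libraries enter both comparisons, so a low value there lowers the first and raises the second.

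**Figure D1:**
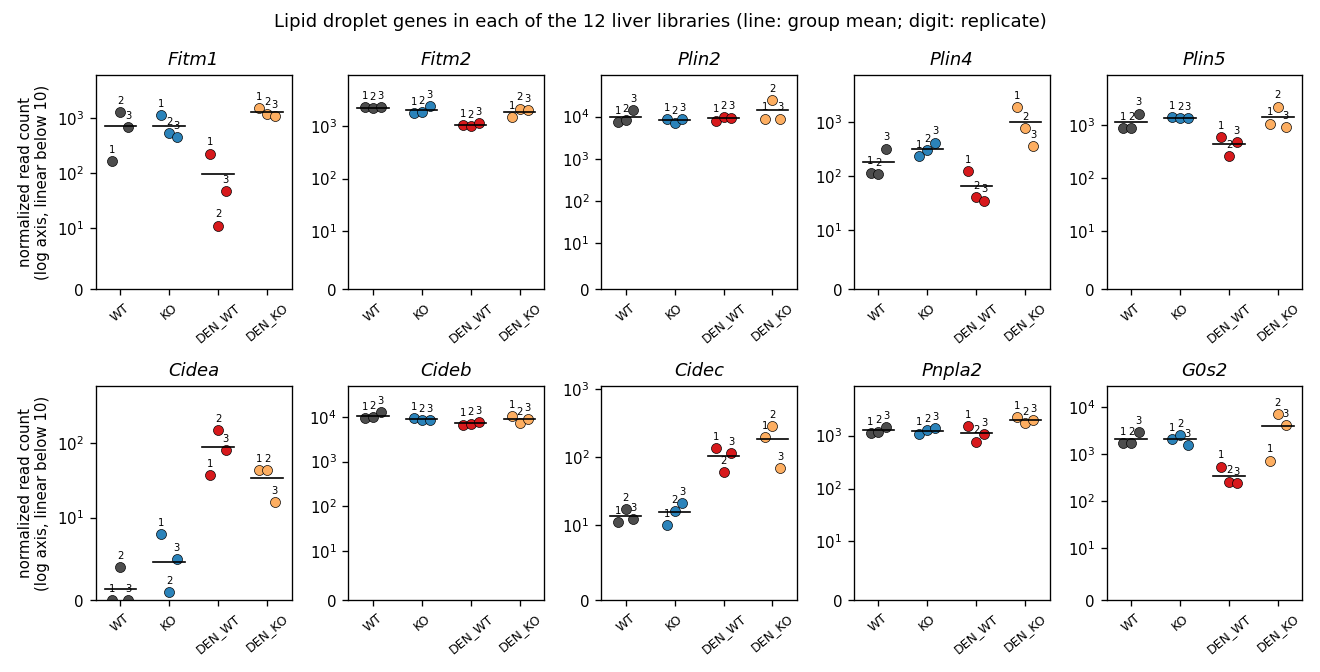
Normalized read counts of the 10 droplet genes (y axis, logarithmic above 10 and linear below it) in each of the 12 liver libraries, grouped on the x axis, with the replicate number above each point and a line at the group mean. Plin5 and G0s2 are lower in the 3 DEN_WT libraries than in the 9 others, Fitm1 and Plin4 are lower in DEN_WT than in DEN_KO but overlap WT there, and Cidea and Cidec are high in all 6 DEN-treated libraries.

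Fitm1 (ENSMUSG00000022215, mm9 chromosome 14, 56194454 to 56195789, plus strand) encodes the FIT protein best known from skeletal muscle. The WT libraries read 164, 1256 and 673, the KO libraries 1123, 525 and 450, the DEN_WT libraries 224, 11 and 47 and the DEN_KO libraries 1507, 1196 and 1066. Every DEN_KO library lay above every DEN_WT library, while WT spanned a wide range that overlapped DEN_WT through WT replicate 1. Group means were 697.7 ± 546.4 in WT, 699.3 ± 368.8 in KO, 94 ± 114 in DEN_WT and 1256 ± 226.6 in DEN_KO (SD, n = 3). Fitm1 was 24.6-fold higher in DEN_KO than in DEN_WT, or 4.62 ± 0.86 SE in log2 (limma adjusted p = 0.00147), and 10.3-fold lower in DEN_WT than in WT (-3.36 ± 0.86, limma adjusted p = 0.00993). Single libraries moved both sizes. DEN_KO stood 51.8-fold above DEN_WT without DEN_WT replicate 1 and 12.0-fold without DEN_WT replicate 2, both still past the threshold. The deficit of DEN_WT against WT was 21.6-fold and 4.99-fold without those same libraries, 18.2-fold without WT replicate 1 and 6.59-fold without WT replicate 2, where the call was lost (limma adjusted p = 0.0521). KO overlapped WT and DEN_KO overlapped KO, and neither of these comparisons passed the threshold (adjusted p = 0.891 and 0.489 in limma).

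Fitm2 (ENSMUSG00000048486, mm9 chromosome 2, 163292115 to 163298365, minus strand), the FIT protein made in most tissues, varied far less between mice. Its WT libraries read 2264, 2195 and 2279, the KO libraries 1756, 1823 and 2359, the DEN_WT libraries 1044, 996 and 1148 and the DEN_KO libraries 1483, 2151 and 2016. The 3 DEN_WT libraries lay below all 9 others. In limma the level fell by 1.08 ± 0.17 SE on the log2 scale with DEN in wild type (adjusted p = 4.2e-04), a 2.12-fold difference. DEN_KO exceeded DEN_WT by 0.81 ± 0.17 (1.75-fold, limma adjusted p = 0.00277) and differed from KO by -0.08 ± 0.17 (adjusted p = 0.792). So the FIT pair took the same directions in DEN_WT against WT and in DEN_KO against DEN_WT. Fitm1 did so over a range of more than 10-fold and Fitm2 within a range of about 2-fold. Their signs differed in KO against WT (0.311 and -0.195) and in DEN_KO against KO (0.951 and -0.077), with neither gene past the threshold.

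Plin2 (ENSMUSG00000028494, mm9 chromosome 4, 86294290 to 86315964, minus strand) coats droplets in nearly all cells and its protein is stabilized by stored lipid. In WT the libraries read 7420, 8323 and 14107, the KO libraries 8762, 7219 and 8785, the DEN_WT libraries 8049, 9585 and 9509 and the DEN_KO libraries 8977, 24774 and 9000. A single library, DEN_KO replicate 2, was far above the rest, and the other 2 DEN_KO values lay within the range of DEN_WT. The difference between DEN_KO and DEN_WT was 0.48 ± 0.35 SE in log2 (limma adjusted p = 0.299) and -0.01 ± 0.25 without that library (adjusted p = 0.991). With WT replicate 3 also high within its group, DEN_WT differed from WT by -0.08 ± 0.35 (limma adjusted p = 0.883).

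Plin4 (ENSMUSG00000002831, mm9 chromosome 17, 56240014 to 56249225, minus strand) is a perilipin of adipocytes and muscle that coats nascent droplets. WT libraries read 116, 107 and 325, the KO libraries 235, 300 and 421, the DEN_WT libraries 122, 40 and 35 and the DEN_KO libraries 1922, 781 and 358. The DEN_KO libraries differed from each other more than 5-fold, yet the lowest of them was above the highest DEN_WT value. Means were 182.7 ± 123.3 in WT, 318.7 ± 94.39 in KO, 65.67 ± 48.85 in DEN_WT and 1020 ± 809 in DEN_KO (SD, n = 3). In DEN_KO it stood 14.4-fold above DEN_WT, by 3.85 ± 0.60 SE in log2 (limma adjusted p = 4.9e-04), a difference of 9.36-fold without DEN_KO replicate 1 and 21.7-fold without DEN_KO replicate 3. Against WT, DEN_WT differed by -1.50 ± 0.60 with a limma adjusted p of 0.0745, not past the threshold, and the groups overlapped. DEN_KO exceeded KO by 1.39 ± 0.60 (limma adjusted p = 0.135), with DEN_KO replicate 3 inside the KO range.

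Plin5 (ENSMUSG00000011305, mm9 chromosome 17, 56251024 to 56257019, minus strand) links droplets to mitochondria and is abundant in tissues that burn fat. It lies upstream of its neighbour Plin4 on the same strand, with 1798 bases between the pair. The WT libraries read 870, 866 and 1659, the KO libraries 1429, 1348 and 1374, the DEN_WT libraries 593, 262 and 473 and the DEN_KO libraries 1073, 2254 and 912. All 3 DEN_WT values were below all 9 others, and KO was tight around 1384 ± 41.36 (SD, n = 3). With DEN in wild type it fell by 1.36 ± 0.36 SE in log2 (2.57-fold, limma adjusted p = 0.0114), a call lost without WT replicate 3 or without DEN_WT replicate 2 (adjusted p = 0.0533 and 0.0532). DEN_KO was 3.10-fold above DEN_WT (1.63 ± 0.36, limma adjusted p = 0.00383) and 2.36-fold above it without DEN_KO replicate 2 (1.24 ± 0.33, adjusted p = 0.0152).

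Pnpla2 (ENSMUSG00000025509, mm9 chromosome 7, 148641097 to 148646642, plus strand) is the triglyceride lipase. Its WT libraries read 1117, 1193 and 1438, its KO libraries 1095, 1262 and 1379, its DEN_WT libraries 1518, 769 and 1078, and its DEN_KO libraries 2205, 1726 and 1949. The 3 DEN_KO values were above all 9 others, and the other 3 groups overlapped. In DEN_KO it was 1.81-fold above DEN_WT, by 0.85 ± 0.22 SE in log2 (limma adjusted p = 0.00876). DEN_KO exceeded KO by 0.65 ± 0.22, just short of the threshold (limma adjusted p = 0.0581), and was past it in a fit of those 2 groups alone (adjusted p = 0.0332). DEN_WT differed from WT by -0.20 ± 0.22 (adjusted p = 0.517).

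G0s2 (ENSMUSG00000009633, mm9 chromosome 1, 195098355 to 195099382, minus strand), the inhibitor of that lipase, moved over a wider range. Its WT libraries read 1673, 1686 and 2931, the KO libraries 2054, 2483 and 1525, the DEN_WT libraries 531, 258 and 240 and the DEN_KO libraries 718, 7057 and 4125. DEN_WT lay below all other libraries, but DEN_KO split: replicate 1 sat below every untreated library and replicates 2 and 3 above every one of them. Means were 2097 ± 722.6 in WT, 2021 ± 479.9 in KO, 343 ± 163.1 in DEN_WT and 3967 ± 3172 in DEN_KO (SD, n = 3). G0s2 fell with DEN in wild type by 2.65 ± 0.62 SE in log2, or 6.29-fold (limma adjusted p = 0.00572). DEN_KO was 8.57-fold above DEN_WT (3.10 ± 0.62, limma adjusted p = 0.0022) and 5.36-fold above it without DEN_KO replicate 2 (2.42 ± 0.57, adjusted p = 0.00822), and 16.8-fold without DEN_KO replicate 1, the low library of its group (4.07 ± 0.37, adjusted p = 1.2e-04). In DEN_KO both the lipase and its inhibitor were therefore higher than in DEN_WT, while in DEN_WT against WT the inhibitor passed the threshold and the lipase did not. DEN_KO differed from KO by 0.48 ± 0.62 (limma adjusted p = 0.641), and by 1.45 without DEN_KO replicate 1 (adjusted p = 0.032).

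Cidea (ENSMUSG00000024526, mm9 chromosome 18, 67503218 to 67527448, plus strand) promotes the growth of large droplets and is known from brown fat and fatty liver. In WT the libraries read 0, 4 and 0, the KO libraries 8, 1 and 5, the DEN_WT libraries 37, 149 and 81 and the DEN_KO libraries 43, 43 and 16. Near absent without DEN, it was above the highest untreated value in all 6 treated libraries. Cidea rose in wild type by 5.50 ± 0.76 SE on the log2(value + 1) scale (limma adjusted p = 1.8e-04). Its untreated values, 0 to 8, were all under the filter's 10, so it was tested only because its treated values were high. The filter thus favoured a call upward with DEN in either genotype. With values this low the size depends on the pseudocount: it was 6.21 with a pseudocount of 0.5 and 3.76 with one of 5, and 6.28 without WT replicate 2. In the knockout it rose by 2.75 ± 0.76 (limma adjusted p = 0.0293), a call lost without KO replicate 2 (2.13), DEN_KO replicate 1 or DEN_KO replicate 2 (adjusted p = 0.101, 0.0867 and 0.0998). DEN_KO was at -1.28 ± 0.76 against DEN_WT (adjusted p = 0.212), and its range overlapped that of DEN_WT.

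Cidec (ENSMUSG00000030278, mm9 chromosome 6, 113374628 to 113385754, minus strand), also called Fsp27, fuses droplets at their contact sites and is a marker of steatotic liver. WT libraries read 11, 17 and 12, the KO libraries 10, 16 and 21, the DEN_WT libraries 135, 60 and 115 and the DEN_KO libraries 195, 283 and 68. All 6 treated libraries were above all 6 untreated ones, in either genotype. Cidec rose 7.0-fold with DEN in wild type, by 2.81 ± 0.49 SE in log2 (limma adjusted p = 8.7e-04), and 9.77-fold in the knockout (3.29 ± 0.49, limma adjusted p = 0.00151), or 14.7-fold there without DEN_KO replicate 3. Its difference between DEN_KO and DEN_WT was 0.67 ± 0.49 (adjusted p = 0.311).

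Cideb (ENSMUSG00000022219, mm9 chromosome 14, 56372882 to 56377295, minus strand) is the CIDE protein of normal hepatocytes and works in the lipidation of VLDL, the liver's triglyceride-rich lipoprotein. The WT libraries read 9357, 10032 and 12663, the KO libraries 9545, 8596 and 8622, the DEN_WT libraries 6709, 7100 and 7721 and the DEN_KO libraries 10477, 7322 and 9050. DEN_WT lay below both untreated groups and overlapped DEN_KO through DEN_KO replicate 2. The fall with DEN in wild type was 0.564 in log2 (limma adjusted p = 0.0301), or 1.48-fold, a call lost in 9 of 23 alternatives. Quantile normalization put it at -0.08 (adjusted p = 0.747) and total sum scaling at -0.35 (adjusted p = 0.185). It was also lost with no filter on low values (adjusted p = 0.0621), in a fit of the 2 groups alone (0.0551), and without WT replicate 2 or 3 or any 1 of the DEN_WT libraries (limma adjusted p = 0.0501 to 0.118). DEN_KO differed from DEN_WT by 0.31 ± 0.18 SE (limma adjusted p = 0.205). Cideb shares 1456 bases with 2610027L16Rik on the opposite strand, which read 348 to 626 in the 12 libraries. The use of strand in counting is not given in the sources used here, so reads of the overlap cannot be assigned. The gene pairs Fitm1 with the antisense gene Gm15932 and Cidea with B430212C06Rik also overlap, and those partners read 0 to 2 and 0 to 7.

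**Figure D2:**
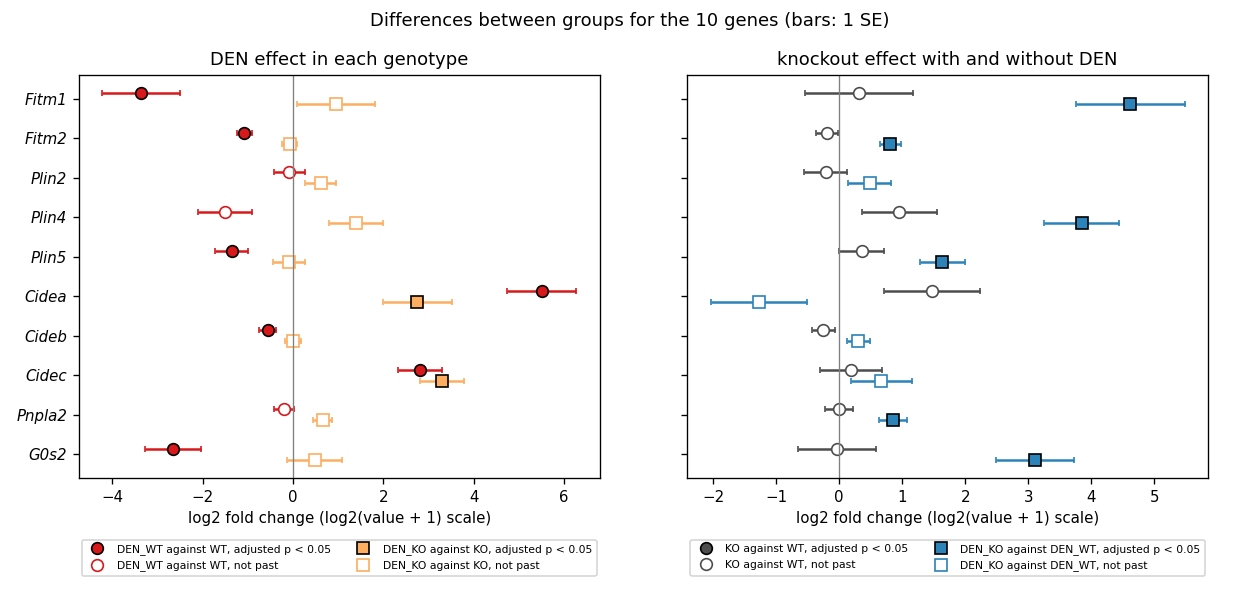
Log2 fold changes of the 10 droplet genes on the log2(value + 1) scale (x axis; bars 1 SE), for DEN against untreated in each genotype (left) and knockout against wild type without and with DEN (right), with filled points for an adjusted p under 0.05. In the right panel 6 points are filled for DEN_KO against DEN_WT and 0 for KO against WT, and in the left panel 7 are filled for wild type and 2 for the knockout.

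Without DEN, differences of the droplet genes between KO and WT were all short of the threshold. In KO against WT, 0 of the 10 were past it in limma, beside 1.16% of all tested genes. With so small a share over all genes, a count of 0 among 10 does not set the droplet genes apart. An unadjusted limma p under 0.05 was found for 0 of the 10 and for 2492 of the 16471 tested genes. The KO and WT ranges overlapped for each of the 10, but the share of all genes with overlapping ranges is not given here. The largest differences among the 10 were Cidea at 1.48 ± 0.76 SE (adjusted p = 0.383) and Plin4 at 0.95 ± 0.60 (limma adjusted p = 0.474). With DEN on both sides, 6 of 10 were higher in DEN_KO and 0 lower, with a median log2 fold change of 0.83 for the 10 genes and -0.06 for all genes tested. That count was 6 again without DEN_KO replicate 2. In DEN_WT against WT the median of the 10 was -0.82, against -0.02 for all genes.

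Within the knockout fewer of them were called with DEN, and so were fewer of all genes (14.9%, against 29.6% in wild type). In DEN_KO against KO, 2 of 10 were past the threshold (Cidea and Cidec, both higher), near the share over all genes. That count was 1 without KO replicate 2 or DEN_KO replicate 2. It includes Cidea, which was tested only because its treated values were high, so the filter favoured that call. The interaction, the DEN effect in knockout less that in wild type, tests whether the effects of DEN differed by genotype. It was past the threshold for 4 of 10, beside 16.6% of all genes: Fitm1 (4.31 ± 1.22 SE, limma adjusted p = 0.0292), Fitm2 (1.00 ± 0.24, adjusted p = 0.0137), Plin4 (2.89 ± 0.85, adjusted p = 0.0337) and G0s2 (3.13 ± 0.87, adjusted p = 0.0279). The Fitm2 call was kept under all 22 alternatives. The other 3 calls were lost in 10 (Fitm1), 9 (Plin4) and 9 (G0s2) of the 22, with adjusted p-values up to 0.0734, 0.0788 and 0.0691. With 1 library left out, the values ran from 3.27 (without DEN_WT 2) to 5.39 (without DEN_WT 1) for Fitm1, where WT 1 and WT 2 also moved it to 5.14 and 3.67. They ran from 2.27 (without DEN_KO 1) to 3.48 (without DEN_KO 3) for Plin4 and from 2.45 (without DEN_KO 2) to 4.10 (without DEN_KO 1) for G0s2. The Fitm1 call was lost without WT 2 or 3, KO 2 or 3, DEN_WT 2 or 3, or DEN_KO 1 or 3, the Plin4 call without WT 3, KO 1 or 2, DEN_WT 2 or 3, or DEN_KO 1 or 2, and the G0s2 call without WT 3, KO 1 or 3, DEN_WT 2 or 3, or DEN_KO 2 or 3. Plin5 (1.27 ± 0.50, adjusted p = 0.1), Cidea (-2.75 ± 1.08, adjusted p = 0.0958) and Pnpla2 (0.86 ± 0.31, limma adjusted p = 0.0715) did not pass.

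Other proteins of the droplet surface and of droplet formation were called in both directions. Of 13 tested besides the 10, 4 were higher and 4 lower in DEN_KO than in DEN_WT, with a median of -0.02, beside 16.4% of all tested genes higher and 17.4% lower. Ldah, a droplet hydrolase (listed as 1110057K04Rik), read 1388, 1483 and 1165 in WT, 742, 632 and 593 in DEN_WT, and 1218, 1396 and 1378 in DEN_KO, a rise of 1.02 ± 0.15 SE over DEN_WT (limma adjusted p = 3.6e-04). Going the other way, Abhd5, the coactivator that G0s2 opposes at Pnpla2, read 1646, 2212 and 3140 in DEN_WT and 741, 861 and 825 in DEN_KO, a 2.79-fold difference (-1.48 ± 0.25, limma adjusted p = 8.9e-04). Hilpda, another inhibitor of Pnpla2, was 2.71-fold lower in DEN_KO (-1.44 ± 0.30, limma adjusted p = 0.00282). Pnpla3, a droplet protein that binds Abhd5, read 40, 17 and 9 in WT, 646, 1310 and 1536 in DEN_WT and 266, 173 and 123 in DEN_KO. It rose 56.1-fold with DEN in wild type (limma adjusted p = 1.1e-05) and was 6.09-fold lower in DEN_KO than in DEN_WT (adjusted p = 0.00331). Around the lipase, then, Pnpla2 and its inhibitor G0s2 were higher in DEN_KO than in DEN_WT, and its coactivator Abhd5 and its inhibitor Hilpda were lower.

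Of 19 triglyceride synthesis genes 4 were higher and 5 lower in DEN_KO than in DEN_WT, near the shares over all genes (16.4% and 17.4%). Acsl1, the acyl-CoA synthetase of hepatocytes, and Agpat6, which starts glycerolipid synthesis, were higher by 1.41 ± 0.26 SE and 1.23 ± 0.24 (limma adjusted p = 0.00129 and 0.00207). Acsl4 and Acsl3, synthetases of the same family, were lower by -1.78 ± 0.25 and -1.29 ± 0.28 (limma adjusted p = 2.9e-04 and 0.00373). Among 15 genes of triglyceride hydrolysis, a list that also holds Abhd5, Hilpda and Pnpla3, 6 were higher and 4 lower. Ces1f and Ces1d, liver carboxylesterases that hydrolyse triglyceride, were 6.16-fold and 4.45-fold higher in DEN_KO (limma adjusted p = 3.7e-05 and 6.3e-05), but they belong to a family of close copies whose reads may be shared. Lpl, the lipase of vessel walls, read 490, 367 and 182 in WT, 3976, 6396 and 5691 in DEN_WT and 865, 819 and 317 in DEN_KO, 8.62-fold lower in DEN_KO than in DEN_WT (limma adjusted p = 1.6e-04).

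A list of genes under PPAR control, mostly enzymes, was read for the same comparisons. Of 19 tested, 11 were higher and 1 lower in DEN_KO than in DEN_WT (median 1.09), and 2 were higher and 9 lower in DEN_WT than in WT (median -0.84, 8 not past the threshold). The shares over all genes were 16.4% higher and 17.4% lower in the first comparison, and 16.1% higher and 13.5% lower in the second. Acot1, an acyl-CoA thioesterase, read 318, 650 and 902 in WT, 124, 71 and 111 in DEN_WT, and 815, 2766 and 974 in DEN_KO, a rise of 3.70 ± 0.45 SE over DEN_WT (limma adjusted p = 1.2e-04). Acaa1b, a peroxisomal thiolase, was higher by 2.73 ± 0.26 (adjusted p = 3.7e-05 in limma) and the carnitine carrier Slc25a20 by 0.85 ± 0.17 (adjusted p = 0.002). Among 16 transcription factors of lipid storage 5 were higher and 0 lower, including Creb3l3, which both lists hold and both counts include (1.53 ± 0.18, limma adjusted p = 1.2e-04), Cebpb (1.81 ± 0.32, adjusted p = 9.9e-04) and Nr0b2 (1.29 ± 0.28, adjusted p = 0.00385). Ppara itself read 2443, 3264 and 3423 in WT, 1672, 1651 and 1649 in DEN_WT and 2255, 3155 and 3420 in DEN_KO, higher in DEN_KO by 0.81 ± 0.18 (limma adjusted p = 0.00475). DEN_KO replicate 2, the library with the highest Plin2 and G0s2, also held the highest Acot1, Cyp4a10 (7956), Cyp4a14 (5491) and Fgf21 (825) values of the 12.

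**Figure D3:**
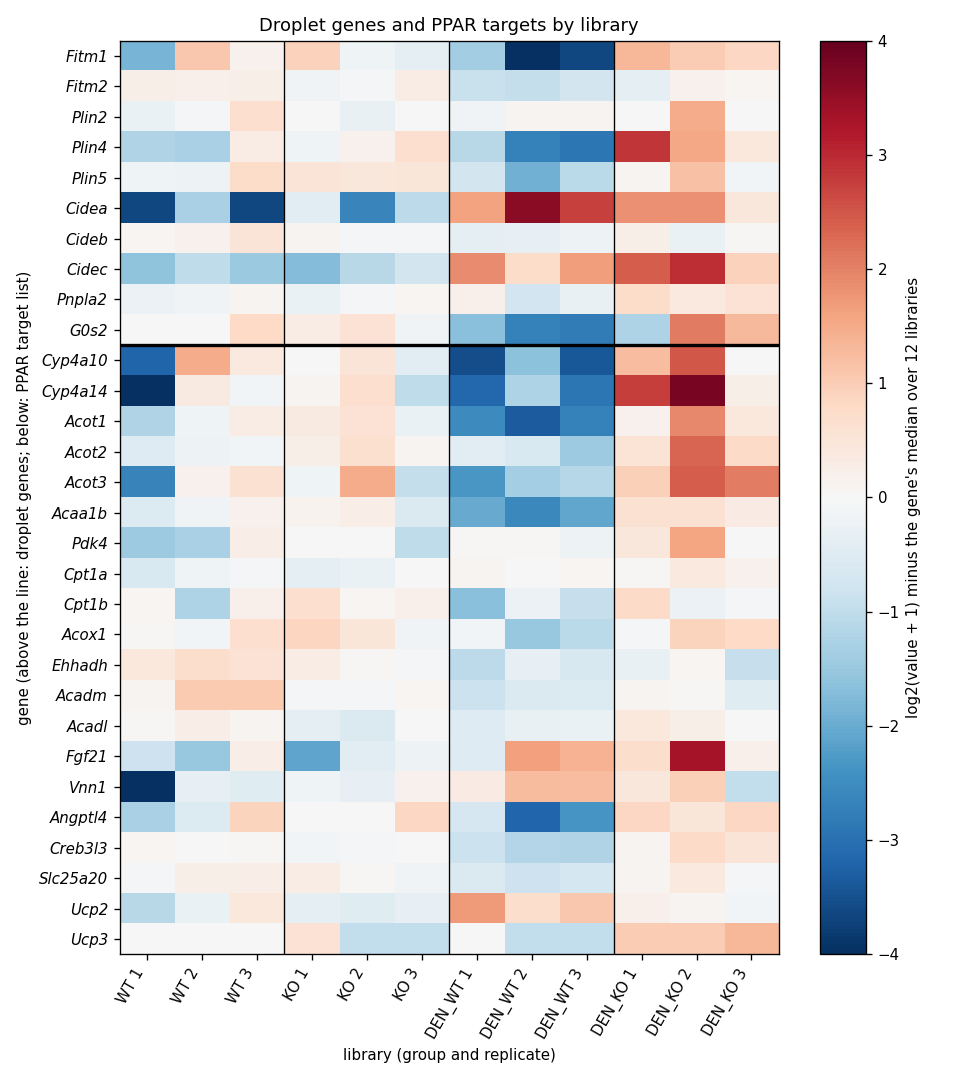
Log2(value + 1) of each gene minus its median over the 12 libraries (colour, red above and blue below the median, limited to 4 either way), with the 10 droplet genes above the line, 20 genes of the PPAR list below it, and libraries in columns. Fitm1, Plin4 and G0s2 share with Acot1 and Acaa1b a blue block in the 3 DEN_WT libraries, and DEN_KO replicate 2 is the reddest column for Cyp4a14 and Fgf21.

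Plin4, Cidea and Fitm1 are better known from fat and muscle than from liver, so markers of those tissues were read beside them. Of 10 adipocyte markers, a list that holds Cidea, Adipoq read 0 to 2, Lep 0 to 3, Plin1 0 to 2, Retn 0 to 2 and Ucp1 0 to 3 in the 12 libraries, and these 5 were too low to test. The summed adipocyte list ran from 611 to 874 in WT, 1118 to 1191 in KO, 925 to 1437 in DEN_WT and 1188 to 1259 in DEN_KO. Adrb3 (227 to 768), Lipe (157 to 526) and Fabp4 made up most of it. Of the 5 tested, Cidea among them, 2 were higher in DEN_WT than in WT, beside 16.1% of all tested genes. In DEN_KO against DEN_WT 1 was higher and 1 lower, beside 16.4% and 17.4%. Against KO, 3 were higher in DEN_KO, while 14.9% of all tested genes were called there in either direction. Fabp4, a fatty acid carrier of adipocytes and macrophages, read 43, 109 and 66 in WT, 71, 84 and 77 in the KO libraries, 458, 318 and 255 in the DEN_WT libraries and 146, 257 and 142 in the DEN_KO libraries. It was 4.87-fold higher in DEN_WT than in WT (limma adjusted p = 3.0e-04) and lower in DEN_KO than in DEN_WT by -0.93 ± 0.34 SE in log2 (adjusted p = 0.048). Cfd, the adipokine adipsin, read 181, 62 and 21 in DEN_KO and 0 to 18 elsewhere. It was higher in DEN_KO than in DEN_WT (adjusted p = 3.0e-04 in limma) and than in KO (adjusted p = 0.038). Outside DEN_KO only KO replicate 1 (18) reached the filter's 10, so Cfd was tested only because its DEN_KO values were high. The filter thus favoured its upward calls, as it did those of Cidea with DEN, and the counts above include both genes. The 10 skeletal muscle markers summed to 18 to 29 in WT, 32 to 42 in KO, 28 to 43 in DEN_WT and 22 to 48 in DEN_KO, so the DEN_WT and DEN_KO ranges overlapped, and 2 of the 10 could be tested. The part of fat or muscle in the droplet gene values was not tested.

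Some markers of other cell types were also higher in DEN_WT than in WT, beside 16.1% of all tested genes. In DEN_KO against DEN_WT the shares over all tested genes were 16.4% higher and 17.4% lower. The summed cholangiocyte list of 7 markers ran from 910 to 1113 in WT, 798 to 865 in KO, 9731 to 16656 in DEN_WT and 1079 to 1805 in DEN_KO, nearly all of the DEN_WT sum being Spp1 (9331 to 16227), and of the 5 tested markers Spp1 was higher in DEN_WT than in WT and lower in DEN_KO than in DEN_WT, while Krt7, Krt19, Epcam and Sox9 passed neither test. The stellate list of 10 ran from 5342 to 6007 in WT, 4493 to 5639 in KO, 6430 to 10540 in DEN_WT and 4376 to 5446 in DEN_KO, with 4 of 10 higher and 1 lower in DEN_WT than in WT, and 5 lower in DEN_KO than in DEN_WT. Sums for 12 macrophage markers were 5354 to 5546 in WT, 6080 to 7221 in KO, 3309 to 11908 in DEN_WT and 9125 to 12529 in DEN_KO. The DEN_WT range spanned that of WT, and 3 of the 12 (Trem2, Gpnmb and Itgax) were higher in DEN_WT than in WT and 9 not past the threshold. Those 3 were lower in DEN_KO than in DEN_WT, and 1 of the 12 was higher. Gpnmb read 637, 122 and 220 in DEN_WT, and elsewhere only KO replicate 2 (11) and DEN_KO replicate 2 (38) reached the filter's 10. It was therefore tested only because its DEN_WT values were high, and the filter favoured its calls in both comparisons. The 8 endothelial markers summed to 4471 to 5112 in WT, 4699 to 5147 in KO, 6055 to 6377 in DEN_WT and 5926 to 6472 in DEN_KO. Of these, 4 were higher in DEN_WT than in WT and 2 lower in DEN_KO than in DEN_WT. Of 6 lymphocyte and neutrophil markers tested, 0 passed in either comparison. The part of these cells in the droplet gene values was not tested.

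Regions at the start sites came from 3 deposited lists, each made from 2 replicates, with a score of 0 for every region, so presence and extent are all they give. A region counted when it reached within 1000 bases of the annotated start (mm9). Smyd3 regions were present at 8 of the 10 droplet genes, against 71.2% of 13988 tested protein-coding genes. H3K4me3 regions were present at 6 of 10 in the wild type list (78.5% of all) and at 8 of 10 in the knockout list (80.5% of all). Fitm2, Plin2, Cidea, Pnpla2 and G0s2 had all 3, Cideb had H3K4me3 in both genotypes and no Smyd3 region, and Cidec had none in that window. Inside the Cidec gene, H3K4me3 regions began 4850 bases (wild type, 2621 bases long) and 4670 bases (knockout, 3246 bases long) from the annotated start.

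Fitm1 and Plin5 had an H3K4me3 region in the knockout list and not in the wild type list, a state found at 3.71% of all tested protein-coding genes. At Fitm1 the knockout region ran from 56194400 to 56195335 on chromosome 14, from 54 bases before the start to 881 bases inside, and the nearest wild type region began 2519 bases downstream of the start, past the end of the gene. At Plin5 the knockout region covered 56255890 to 56257030 on chromosome 17, from 11 bases before the start to 1129 bases inside, and the nearest wild type region lay 1833 bases upstream. Both genes had a Smyd3 region in wild type chromatin, from 56194936 to 56195832 at Fitm1 and from 56256342 to 56257411 at Plin5. None of the 10 had the reverse state, H3K4me3 in the wild type list alone, which 1.75% of genes had. The state of Fitm1 and Plin5 rested on the window and on short regions. It ended for both with a window of 5000 bases, which reached the wild type regions, and when only regions of at least the list's median length were kept, since their knockout regions (936 and 1141 bases) were shorter than that median (1576 bases). It held for both at the start base alone, within 500 bases, and over the gene with 1000 bases before it. The knockout list is also the longer one, with 17491 regions against 15579 in wild type, and whether a region failed a threshold narrowly cannot be read from it.

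Plin4, with the largest difference between DEN_KO and DEN_WT of the 3 perilipins, had no H3K4me3 region within 1000 bases in either list. Its nearest were 6665 bases (knockout) and 9627 bases (wild type) upstream, the first being the region over the Plin5 start. A Smyd3 region began 720 bases inside Plin4, at 56247904 to 56248505. The G0s2 start had H3K4me3 in both genotypes, over 4101 bases in wild type and 2344 bases in the knockout. At Plin2 the H3K4me3 regions were 5011 bases long in wild type and 3791 bases in the knockout. Region lengths have no replicate and no test here.

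**Figure D4:**
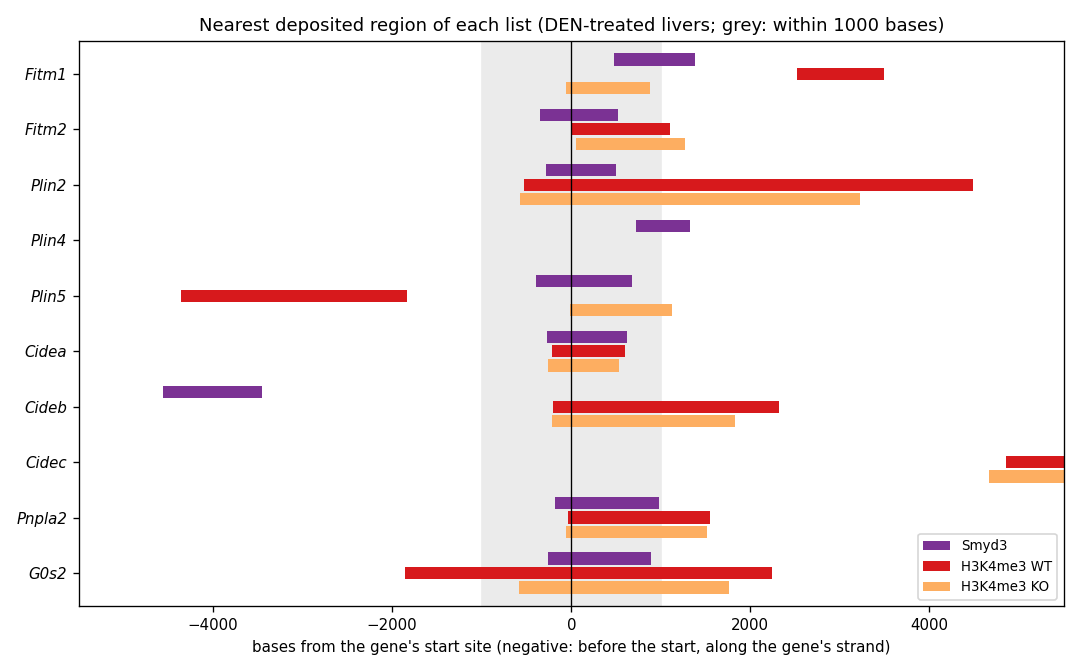
Nearest deposited Smyd3 (wild type), H3K4me3 wild type and H3K4me3 knockout region of each droplet gene, drawn as bars by distance in bases from the gene's start along its strand (x axis), with the window of 1000 bases on either side in grey. Fitm1 and Plin5 have a knockout H3K4me3 bar in the window and no wild type one, and Cidec has no bar in it.

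Genes whose pattern over the 12 libraries was most like that of 4 droplet genes were found by Pearson's r of log2(value + 1), as a description in which the libraries of a group are not independent points. For Fitm1 these were Lhpp (r = 0.965), Mup-ps18 (0.963) and Cyp3a16 (0.955), and Lhpp read 85 to 586 in DEN_WT and 1104 to 1451 in DEN_KO. Mup-ps18 and Cyp3a16 belong to families of close copies, so their counts are uncertain. For Plin4 they were Cfd (0.941), 1810020D17Rik (0.932) and Gm10689 (0.926). Plin2 had looser matches, Paqr9 (0.811), CT025673.1 (0.807) and Gm15441 (0.806), each with its highest value in DEN_KO replicate 2. For Cidec they were Mapk3 (0.956), Tff3 (0.955) and Dvl2 (0.943), and Tff3 read 0 to 24 in untreated and 703 to 7636 in treated libraries.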

How the data were processed

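Liver RNA from 12 mice in 4 groups of 3 was measured on an Ion Proton instrument, per the labels' protocols. The submitters' processing notes name cutadapt, TopHat2 2.0.9, Cufflinks, Bowtie2 and DESeq with build mm9, with no role or order. Which tool counted reads or called peaks, with which annotation and strand setting, is not given in the sources used here. A score is what the deposited RNA values are: the authors' read counts divided by 1 factor per library and rounded, a reading that rests on the values themselves (median-ratio factors of 0.9986 to 1.0040). The deposited region lists carry a score of 0 in every line. Because the values are not raw counts, no counting interval is given, and limma 3.58.1 (R 4.3.3) was fitted to log2(value + 1) with trended moderation, 8 residual degrees of freedom and Benjamini-Hochberg adjustment over 16471 genes. Log2 fold changes on this scale understate changes of low genes. An exact test of 3 against 3 cannot go below p = 0.10. The fit was tested on simulated data. Promoter sequences are RefSeq's (GRCm38.p6) and were not joined by coordinate to the mm9 regions. All droplet genes were named, with up to 4 genes of each pathway list by adjusted p in DEN_KO against DEN_WT, and the 3 closest genes by r for 4 of them; genes outside this rule (Cyp4a10, Cyp4a14, Fgf21) were added after their values were seen, and 1 gene of the PPAR list and 1 cholangiocyte marker are not reported here. The genes and lists were chosen with earlier results of these data known. Alternatives covered pseudocount, filter, scaling, moderation, samples in the fit, a replicate block, each library left out, and the window and length of regions. RNA polymerase II and input libraries were not analysed here.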

Additional observations from a re-analysis of the deposited data

Results flagged for a closer look

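For 4 of the 10 droplet genes the interaction test in limma was past the threshold, beside 16.6% of all tested genes. Only the Fitm2 call was kept in all 22 alternatives. The call was lost in 10 of 22 for Fitm1, 9 for Plin4 and 9 for G0s2. The DEN effect in knockout minus that in wild type was 4.309 in log2 for Fitm1 (adjusted p = 0.0292), 1.004 for Fitm2 (adjusted p = 0.0137), 2.892 for Plin4 (adjusted p = 0.0337) and 3.130 for G0s2 (adjusted p = 0.0279). For Fitm2 the wild type effect was -1.08 and the knockout effect -0.08. Fitm1 had -3.36 and 0.95, Plin4 -1.50 and 1.39, and G0s2 -2.65 and 0.48, and among these 8 effects those of Fitm1, Fitm2 and G0s2 in wild type were past the threshold on their own.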

How the results depend on the processing

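Over 50 droplet gene results and 1135 alternative values, 1051 kept direction and side of the threshold, 43 lost a call, 11 gained one and 30 changed sign. Of the 19 results past the threshold, 388 of 431 values kept the call and 0 changed sign. The 6 higher calls in DEN_KO against DEN_WT held in all 23 alternatives each. Adding the replicate block left 7, 6, 0, 2 and 4 of the 10 called (DEN in wild type, knockout with DEN, knockout without DEN, DEN in knockout, interaction). The replicate numbers are not known to pair mice: deviations of same-numbered libraries correlated at -0.0996 to 0.1196 over 18 pairs, and 3 of 12 libraries were closest to their own number.

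The count for DEN_KO against KO was 1 with the filter at 50, which removes Cidea, and 1 to 3 with a library left out. The interaction count was 1 without the trend and 1 with a robust prior, and 1 to 5 with a library left out. H3K4me3 knockout regions at start sites numbered 4 when only regions of at least the median length were kept. The interaction has no fit of only the 2 groups compared.

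Sign changes were confined to differences short of the threshold. Quantile normalization, upper quartile scaling and total sum scaling gave 0.017, 0.032 and 0.117 for Pnpla2 and 0.017, 0.006 and 0.091 for G0s2 in KO against WT. Plin2 in DEN_WT against WT became 0.435 (quantile) and 0.132 (total sum), and Pnpla2 there 0.012 (total sum). Cideb became -0.098 (quantile) in DEN_KO against DEN_WT, and 0.025 (upper quartile) and 0.051 (total sum) in DEN_KO against KO. With a library left out, KO against WT ranged from -0.516 to 0.949 for Fitm1, -0.398 to 0.065 for Plin2, -0.045 to 0.455 for Cidec, -0.079 to 0.103 for Pnpla2 and -0.192 to 0.238 for G0s2. DEN_KO against KO ranged from -0.182 to 0.086 for Fitm2, -0.483 to 0.169 for Plin5, -0.130 to 0.128 for Cideb and -0.203 to 1.445 for G0s2. DEN_WT against WT ranged from -0.265 to 0.199 for Plin2 and -0.448 to 0.042 for Pnpla2, and Plin2 in DEN_KO against DEN_WT from -0.005 to 0.727. The cause of these shifts was not tested.

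Total sum scaling moved the median of all genes to 0.192 in DEN_WT against WT (74.21% of calls higher, 54.47% in the reported fit) and to -0.178 in the interaction (38.16% higher, 52.73% in the reported fit). In KO against WT it put 65.09% of calls higher (47.12% in the reported fit) and in DEN_KO against KO 69.88% (59.67%). Leaving out a library moved the calls over all genes from 191 to between 62 and 560 in KO against WT, from 2460 to as few as 1170 in DEN_KO against KO, and from 2727 to as few as 1787 in the interaction. Rounding and low values limit Cidea, and 3 mice per group limit all estimates.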

Other observations

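Export and uptake of lipid, the routes that flank the droplet, were read from lists of their own. Of 14 genes of VLDL assembly, 1 was higher and 2 lower in DEN_KO than in DEN_WT, below the shares over all tested genes (16.4% higher, 17.4% lower). Apoc3, an inhibitor of triglyceride clearance, was higher by 1.40 ± 0.35 SE in log2 (limma adjusted p = 0.00803), and Tm6sf2, which helps load VLDL, and Tmem41b, a scramblase, were lower by -0.77 ± 0.25 (adjusted p = 0.0317) and -1.14 ± 0.24 (adjusted p = 0.00285). Apoa4, an apolipoprotein of triglyceride-rich particles, rose with DEN in wild type by 4.07 ± 0.39 (limma adjusted p = 1.2e-05) and differed by -0.97 ± 0.39 between DEN_KO and DEN_WT (adjusted p = 0.0734).

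Of 12 genes of fatty acid uptake and binding, 4 were higher and 2 lower in DEN_KO than in DEN_WT, beside those same shares of 16.4% and 17.4%. Fabp1, the cytosolic fatty acid carrier of hepatocytes, read 57046, 62546 and 57333 in WT, 40127, 50314 and 68376 in the KO libraries, 26257, 24390 and 25350 in the DEN_WT libraries, and 66171, 70722 and 66451 in DEN_KO. DEN_WT lay below all 9 other libraries and DEN_KO above WT, while KO overlapped both WT and DEN_KO. It was higher in DEN_KO by 1.42 ± 0.24 SE (limma adjusted p = 8.6e-04). The transporters Slc27a5 and Slc27a2 were higher by 1.40 ± 0.25 and 0.91 ± 0.19 (limma adjusted p = 0.00108 and 0.00296) and the acyl-CoA binding protein Dbi by 1.26 ± 0.27 (adjusted p = 0.0032).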
